A study of Macaca fascicularis with 6 samples.

Results

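CPXM2, CLEC3B, F10, HHIP, ASIP, OSR2, INMT and ADH1B are 8 of the 28623 genes in the count tables of a single-cell RNA-seq study of the cynomolgus monkey lung, and they were chosen by name because their levels in fibroblasts (Fibs) and other stromal cells differed between asthma and control monkeys in an earlier reading of the same data. Each symbol matched exactly 1 row in every library. Because the asthma and control levels in stromal cells served to choose these genes, those levels are described here with no test, and tests of the genes are given only for cells outside the stroma.

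The study compared 3 control and 3 asthma monkeys, all male and 3 to 5 years old, each with 1 droplet library of 3′ counts from dissociated lung, and the libraries keep the monkeys' numbers (control 1, 2 and 3, and asthma 8, 10 and 11). Asthma monkeys were sensitized with an antigen of the roundworm Ascaris suum (1 mg/mL) and challenged with it (10 mg/mL), control monkeys were given saline, and lungs were collected in week 11. The model is thus an allergic response to a parasite antigen given with adjuvant under the skin and then into the nose, and red blood cells and dead cells were removed from the suspensions before loading. Libraries held between 29014556 and 41489879 unique molecular identifiers (UMIs), and 24235 of 35133 barcodes passed quality control, with medians from 3835 to 5048.5 UMIs per cell. Any pair of libraries shared between 1 and 11 barcodes among the cells that were kept.

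Lung Fibs fall into states that differ by place. Adventitial Fibs lie in the sheaths around bronchi and larger vessels and carry PI16, SFRP2 and MFAP5, alveolar Fibs lie in the alveolar walls and carry TCF21, NPNT and ITGA8, and myofibroblasts make contractile proteins. Of the genes here, CPXM2 encodes a secreted protein of the carboxypeptidase family that lacks the residues needed for catalysis, CLEC3B encodes tetranectin, a C-type lectin that binds plasminogen, and F10 encodes coagulation factor X. HHIP encodes a decoy that binds hedgehog ligands at the cell surface, ASIP encodes the agouti signaling protein, which blocks the melanocortin 1 receptor, and OSR2 is an odd-skipped zinc finger transcription factor. INMT transfers methyl groups to tryptamine and other indoles, and ADH1B is an alcohol dehydrogenase that also oxidizes retinol.

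Cell types and states were rebuilt from marker lists, with the 8 genes left out of the clustering, and names therefore end in -like. Among 2306 stromal-like cells, 782 were matrix Fib-like, of which 424 were general Fib-like (led by CCL11, PF4V1 and DPT), 238 adventitial Fib-like (led by RBP4, PCOLCE2 and MYOC) and 120 alveolar Fib-like (led by FGFR4, ITGA8 and NPNT). The 10 general Fib-like markers summed to between 43537 and 99937 CPM (a gene's UMIs per 1000000 UMIs summed over the same cells) in the matrix Fib-like cells of the 6 libraries. CD3E of T cells was at most 1.44 CPM there and PECAM1 of endothelial cells at most 12.3 CPM. These markers also served in naming the cells, so the values describe the label and do not test it. Control 2 stood apart from the other control libraries in collagen, with COL1A1 at 34261 CPM against 2676 CPM in control 1 and 2549 CPM in control 3. Leaving it out kept the direction of all 8 genes in matrix Fib-like cells, with log2 fold changes from -3.87 for OSR2 to 3.65 for INMT.

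The make-up of the matrix Fib-like cells moved with the groups. Adventitial Fib-like cells made up 56.8% of them in control 1 (25 of 44 cells), 61.7% in control 2 (50 of 81) and 72.5% in control 3 (124 of 171). The same share was 22.1% in asthma 8 (21 of 95) and 25.4% in asthma 10 (18 of 71), and asthma 11 had 0 adventitial cells among 320. Alveolar Fib-like cells were 0, 1 and 6 in number in control 1, 2 and 3 and 17, 11 and 85 in asthma 8, 10 and 11. As a share of stromal-like cells, the adventitial state was 29.8% ± 11.8 in control and 3.65% ± 3.17 in asthma (SD, n = 3 libraries per group), lower in every asthma library, with an exact two-sided permutation p of 0.1, which is the smallest that 20 assignments allow. The alveolar share was 0.794% ± 0.794 and 5.61% ± 3.03 (exact permutation p = 0.1, n = 3 per group, likewise the smallest). The general share did not separate the groups, at 15.8% ± 6.999 and 17.6% ± 6.57 (exact permutation p = 0.6, n = 3 per group). Fewer cells of a state and cells that left a state by a change of expression cannot be told apart here.

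**Figure D1:**
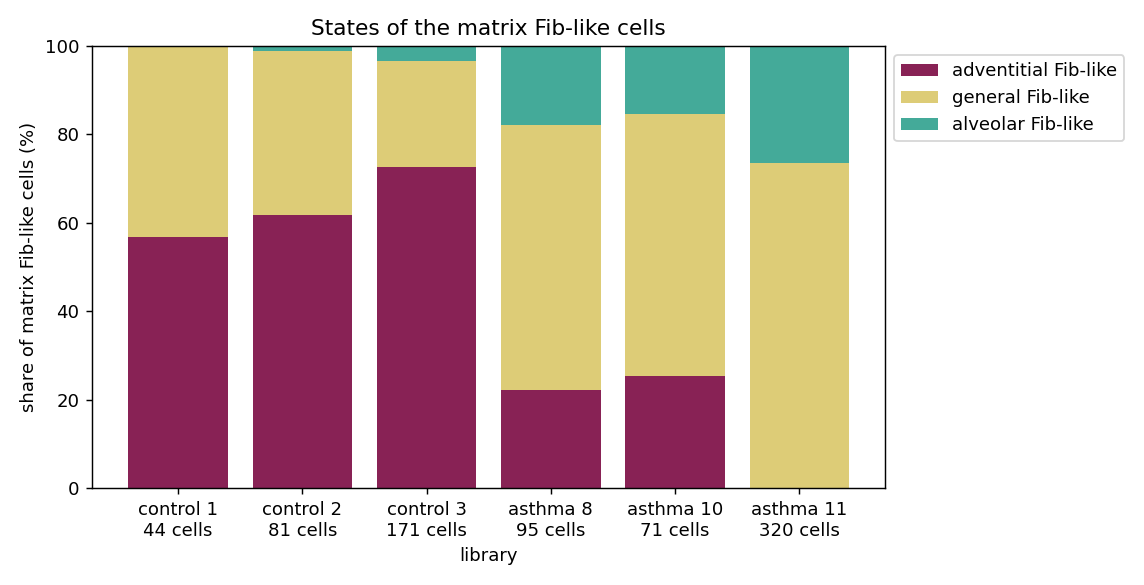
Stacked bars give the share (%) of the matrix Fib-like cells of each library that were adventitial, general or alveolar Fib-like, with the number of cells under each bar. The adventitial share was 56.8% or more in the 3 control libraries and 25.4% or less in the 3 asthma libraries.

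These states matter for the values that follow, because the 8 genes were not spread evenly over them. OSR2 had 97.3% of its stromal UMIs in adventitial Fib-like cells (71 of 73), HHIP 82.5% (501 of 607), F10 81.2% (112 of 138), CLEC3B 75.0% (34561 of 46089) and CPXM2 71.8% (204 of 284). ASIP had 72.1% of its stromal UMIs in the 120 alveolar Fib-like cells (655 of 909). INMT had 65.9% in general Fib-like cells (799 of 1213) and 23.9% in endothelial (EC)-like cells, and ADH1B was divided among general (38.7%), adventitial (23.4%), alveolar (20.1%) and myofibroblast-like cells (15.1%). These shares pool the groups, which differed. In control 84.5% of stromal INMT UMIs lay in EC-like cells (174 of 206) and 12.6% in general Fib-like cells, whereas in asthma 11.5% lay in EC-like cells (116 of 1007) and 76.8% in general Fib-like cells. ADH1B had 49.4% of its UMIs in adventitial Fib-like cells in control (451 of 913) and 13.4% in asthma (316 of 2365), where general Fib-like cells held 47.2%. The adventitial share of CLEC3B was 89.1% in control and 38.1% in asthma, that of HHIP 91.7% and 51.8%, that of F10 87.7% (100 of 114 UMIs) in control with 12 of 24 UMIs in asthma, that of CPXM2 74.2% in control and 55.6% in asthma and that of OSR2 98.5% and 87.5%, and asthma 11 had no adventitial cell.

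PI16 did not set adventitial apart from general Fib-like cells in every library. It was at 2095, 3023 and 1264 CPM in control and at 3280.4 and 1440 CPM in asthma 8 and 10 in adventitial cells, and at 2021, 4802 and 999 CPM in control and at 795, 1007 and 1843 CPM in asthma 8, 10 and 11 in general cells. PI16 was higher in adventitial than in general cells in 4 of the 5 libraries that held both, control 2 being the exception, and MFAP5 was higher in adventitial than in general cells in all 5. C3 and CCL11, also on the adventitial marker list, went the other way. Both were lower in adventitial than in general cells in each of these libraries. In asthma 11, which lacked adventitial cells, general cells had PI16 at 1843, MFAP5 at 422 and the adventitial marker SCARA5 at 859.7 CPM, the highest of the 3 asthma libraries for general cells.

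In matrix Fib-like cells as a whole, CPXM2, CLEC3B, F10, HHIP and OSR2 lay below all 3 control libraries in each asthma library, and ASIP, INMT and ADH1B lay above them. Groups that do not overlap, in either direction, were met in 17.6% of all 6752 genes tested. Since this contrast chose the genes, nothing is read from their count. The median log2 fold change of all genes tested was 0.01.

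**Figure D2:**
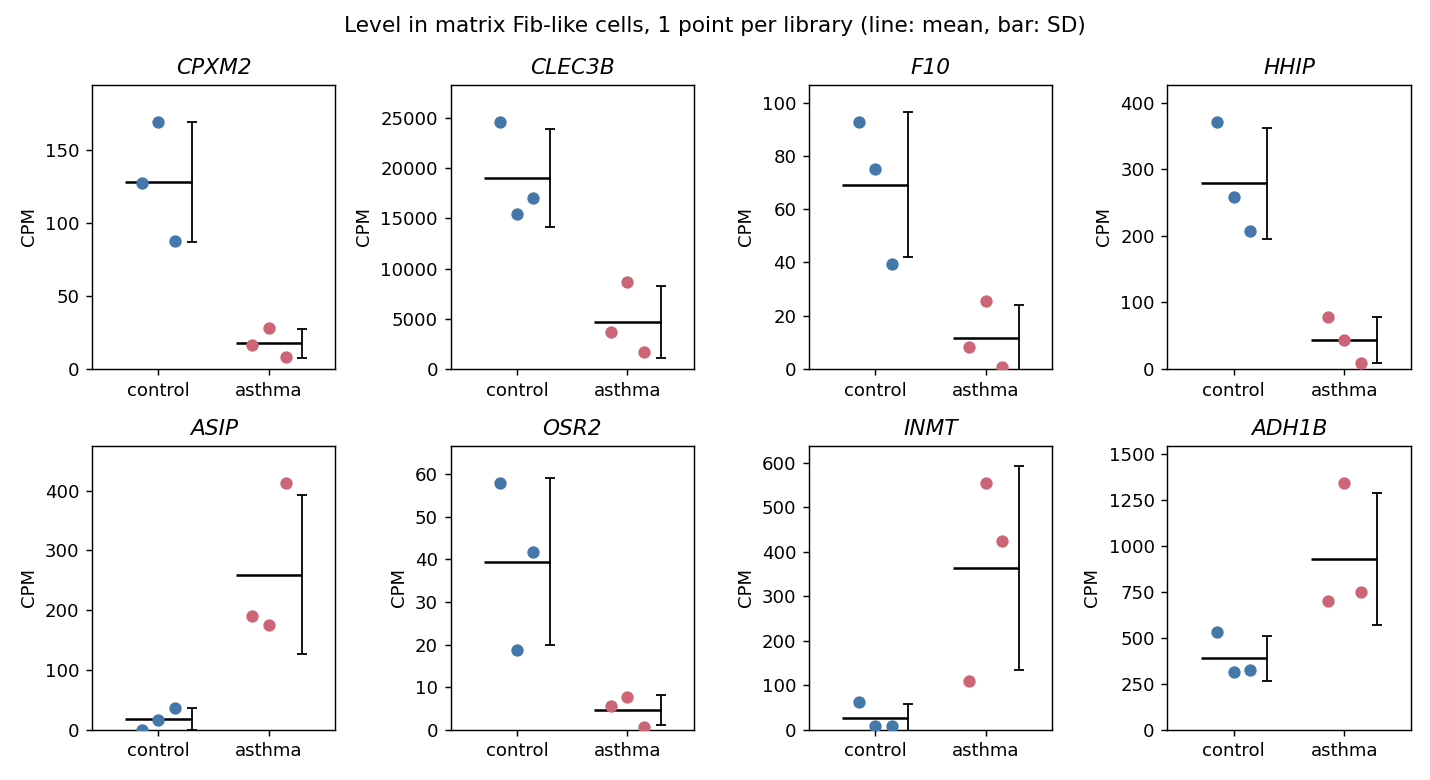
Each panel plots the level of 1 gene in matrix Fib-like cells (CPM of summed UMIs, linear axis from 0), with 1 point per library, a line at the group mean and a bar of 1 SD (n = 3). CPXM2, CLEC3B, F10, HHIP and OSR2 lie lower and ASIP, INMT and ADH1B higher in the asthma group, with no overlap in any panel.

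Among the genes for secreted and surface proteins, CPXM2 stood at 128, 169 and 87.5 CPM in control 1, 2 and 3 and at 16.6, 28.0 and 7.93 CPM in asthma 8, 10 and 11. These values rest on 214 UMIs in control and 34 in asthma. The highest asthma library lay well below the lowest control library, and the log2 fold change was -3.26 (standard error 0.42).

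CLEC3B, the most abundant of the 8 genes in UMIs, was at 24601, 15427 and 16993 CPM in control and at 3684, 8633 and 1713 CPM in asthma. The asthma libraries spread over a wider relative range than the control libraries, and asthma 10 lay closest to control. The log2 fold change was -2.17 (standard error 0.53).

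F10 was at 92.8, 75.3 and 39.5 CPM in control and at 8.31, 25.5 and 0.721 CPM in asthma. Asthma 11 held a single F10 UMI in 320 cells, and only 17 UMIs were counted in the asthma group. The log2 fold change was -3.22 (standard error 0.70), the least precise of the 5 lower genes.

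HHIP was at 371, 258 and 207 CPM in control and at 77.6, 43.3 and 9.37 CPM in asthma. Again asthma 11, the library with no adventitial cells, was the lowest. The log2 fold change was -2.87 (standard error 0.56), on 441 control and 86 asthma UMIs.

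ASIP went the other way. Control 2 had it at 15.4 CPM and control 3 at 36.3 CPM, with 0 UMIs in the 44 cells of control 1, which allows up to 11.6 CPM, and at 189.8, 175.8 and 413 CPM in asthma 8, 10 and 11. The lowest asthma library was thus well above the highest control library, and the log2 fold change was 3.42 (standard error 0.51).

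The transcription factor gene OSR2 was sparse, at 58.0, 18.8 and 41.6 CPM in control and at 5.54, 7.64 and 0.721 CPM in asthma. These levels come from 65 UMIs in control and 8 in asthma, so that counting error is large beside the asthma values. The log2 fold change was -3.56 (standard error 0.63), and it was -2.60 without asthma 11.

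Of the enzymes, INMT was at 61.9, 8.56 and 8.54 CPM in control and at 109, 556 and 425 CPM in asthma. Control 1 was the highest control library and asthma 8 the lowest asthma library, and these lay closer to each other than to the rest of their groups. The log2 fold change was 4.05 (standard error 0.71).

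ADH1B was at 529.8, 311 and 326 CPM in control and at 698, 1343 and 748 CPM in asthma. Its log2 fold change of 1.11 (standard error 0.30) was the smallest of the 8, and asthma 10 was the highest library. Without the alveolar Fib-like cells, which numbered 0, 1 and 6 in control and 17, 11 and 85 in asthma, the groups overlapped for ADH1B, with a log2 fold change of 0.88 (standard error 0.36). The groups still lay apart for the other 6 genes that could be fitted without these cells, whereas ASIP did not pass the filter on low counts.

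Markers of other cells were counted in the same summed cells. The 9 markers of MC-like cells, the class led by ITLN1 and MSLN that carries textbook mesothelial genes, summed to 7.73, 29.1 and 8.54 CPM in control and to 330, 102 and 44.7 CPM in asthma, with ITLN1 the most abundant and CALB2 at 0. Both this sum and INMT, which MC-like cells also express, were higher in each asthma library than in each control library. Within the groups they did not run together, since asthma 8 had the highest sum and the lowest INMT (109 CPM) of the asthma libraries, and control 1 the lowest sum and the highest INMT (61.9 CPM) of the control libraries. In MC-like cells themselves the same markers summed to 46738 CPM or more in every library and INMT to 1577 CPM or less, so that the marker sum was between 42.1 and 67.1 times the INMT level there. In matrix Fib-like cells the sum was 3.01, 0.183 and 0.105 times the INMT level in asthma 8, 10 and 11. The SMC-like list (9 markers, TAGLN the most abundant, ACTG2 at 0) summed to between 288 and 576 CPM in control and between 1114 and 1465 CPM in asthma, and the alveolar list (12 markers, TCF21 the most abundant, none at 0) to between 779 and 1145 and between 1455 and 3229 CPM. The part of these lists in the results was not tested. Lists of EC-like, epithelial-like, mast-like, B-like, dendritic-like, T and NK-like, macrophage-like, granulocyte-like and monocyte-like markers overlapped between the groups, whereas the 6 plasma-like markers summed to 6.40 CPM or less in control and to between 6.93 and 64.9 CPM in asthma.

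To set depth apart from level, each cell was thinned to 1000 UMIs and the share of cells with at least 1 UMI was counted. Cells with fewer UMIs were left out, namely 0, 1 and 4 matrix Fib-like cells of control 1, 2 and 3, 6, 0 and 14 of asthma 8, 10 and 11, and between 8 and 50 T and NK-like cells per library. Median depth was 5578.5 UMIs in control and 4296.5 in asthma matrix Fib-like cells and 3882 and 3404 UMIs in T and NK-like cells, which served as a class that should lack most of these genes. HHIP was found in 18.3% ± 0.835 of thinned matrix Fib-like cells in control and 2.28% ± 1.44 in asthma (SD, n = 3 libraries per group), against 48.8% and 10.3% before thinning. CPXM2 was found in 12.6% ± 4.33 and 2.12% ± 0.762 of thinned cells, against 33.3% and 6.68% before thinning. In thinned T and NK-like cells HHIP reached 0.0358% in control and 0.0634% in asthma, and CPXM2 was not found.

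CLEC3B was found in 90.8% ± 5.71 of thinned control cells and 61.0% ± 9.91 of thinned asthma cells, F10 in 6.03% ± 2.36 and 1.31% ± 1.42, and OSR2 in 3.67% ± 3.44 and 0.844% ± 0.745. OSR2 after thinning was at the level of 1 or a few cells per library, and T and NK-like cells had it in 1.75% and 1.07%, so no difference is read from its thinned share. In the other direction, ASIP was found in 0.599% ± 1.04 and 18.3% ± 3.64, INMT in 3.23% ± 5.08 and 22.2% ± 11.4, and ADH1B in 26.7% ± 6.73 and 51.2% ± 9.61 of thinned cells. ADH1B reached 0.136% and 0.225% and INMT 0.0402% and 0.322% of thinned T and NK-like cells. CLEC3B was found in 0.504% and 0.531% of these cells, F10 in 0% and 0.0317%, and ASIP in 0.0179% and 0.0634%.

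Within adventitial Fib-like cells the log2 fold changes of the 5 lower genes lay closer to 0 than in all matrix Fib-like cells. The adventitial fit lacks asthma 11. Without that library the matrix Fib-like values were -2.69 for CPXM2, -1.74 for CLEC3B, -2.21 for F10, -2.23 for HHIP and -2.60 for OSR2. The adventitial values lay closer to 0 than these too. In adventitial Fib-like cells, which asthma 11 lacked, CPXM2 was at 138, 227 and 107 CPM in control 1, 2 and 3 and at 53.6 and 73.6 CPM in asthma 8 and 10. Groups did not overlap, and the log2 fold change was -1.31 (standard error 0.45). HHIP was at 602, 394 and 262 CPM in control and at 273 and 131 CPM in asthma, overlapping, with a log2 fold change of -0.93 (standard error 0.42).

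CLEC3B in the adventitial state was at 37134, 22286 and 21740 CPM in control and at 8895 and 24685 CPM in asthma, so that asthma 10 lay within the control range. Its log2 fold change there was -0.68 (standard error 0.46). F10 was at 144, 111 and 50.1 CPM in control and at 29.2 and 49.1 CPM in asthma, on 12 asthma UMIs, and OSR2 at 91.7, 29.1 and 54.3 CPM in control and at 19.5 and 24.5 CPM in asthma, on 7 asthma UMIs. Their log2 fold changes were -1.27 (standard error 0.58) and -1.24 (standard error 0.64).

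CPXM2, F10 and OSR2 lay below and ADH1B above the control range in both asthma libraries, and of all 3128 genes tested in adventitial Fib-like cells 21.9% had groups that did not overlap in either direction. ADH1B was at 498, 325 and 351 CPM in control and at 829 and 1194 CPM in asthma in this state, with a log2 fold change of 1.41 (standard error 0.28). INMT had 0 UMIs in the adventitial cells of all 5 libraries that held any, which allows at most 4.18 CPM in control 3, the deepest, and 24.5 CPM in asthma 10, the shallowest. ASIP had 3 UMIs in control and 1 in asthma there. The INMT and ASIP levels of matrix Fib-like cells therefore came from the other states.

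Most INMT UMIs of matrix Fib-like cells lay in general Fib-like cells. INMT was at 151, 14.6 and 33.6 CPM in control and at 131, 856 and 409 CPM in asthma in this state, so that control 1 lay above asthma 8, and the log2 fold change was 2.98 (standard error 0.75). ADH1B was at 576, 273 and 168 CPM and at 466, 1243 and 478 CPM, overlapping, with a log2 fold change of 1.08 (standard error 0.47). CLEC3B was at 6525, 2859 and 1436 CPM and at 1678, 1488 and 1856 CPM, with a log2 fold change of -1.15 (standard error 0.45) and control 1 far above the other libraries.

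In general Fib-like cells CPXM2 had 25 UMIs in control, at 113 and 63.3 CPM in control 1 and 2 and 0 UMIs in control 3, and 14 in asthma, at 2.04, 8.15 and 9.02 CPM. Few UMIs of HHIP (11 in control and 14 in asthma), F10 (5 and 5) and OSR2 (1 and 1) were found in these cells. ASIP was at 0, 19.5 and 9.61 CPM in control and at 10.2, 196 and 85.3 CPM in asthma, where asthma 8 lay between the control libraries.

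**Figure D3:**
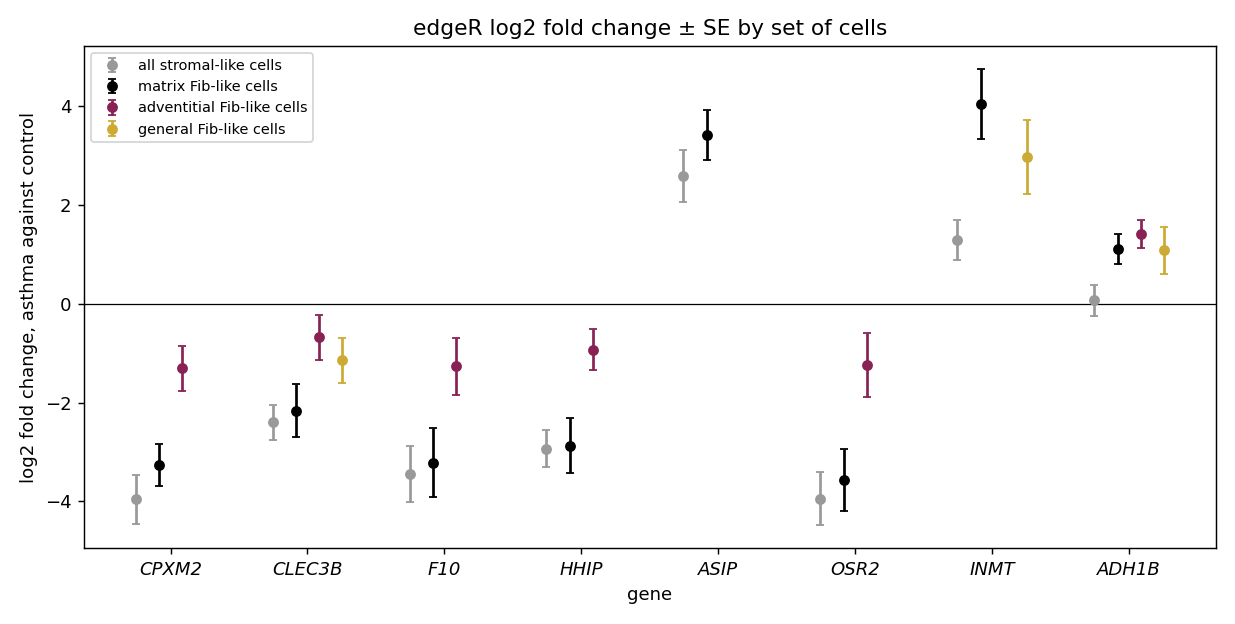
Points give the edgeR log2 fold change of asthma against control for each gene and bars its standard error, in all stromal-like, matrix Fib-like, adventitial Fib-like and general Fib-like cells (a missing point means too few UMIs for the fit). For CPXM2, CLEC3B, F10, HHIP and OSR2 the adventitial value lies closer to 0 than the matrix value, whereas for ADH1B it is 1.41 against 1.11.

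Over all stromal-like cells, endothelial and contractile cells included, the log2 fold change of ADH1B was 0.07 (standard error 0.31) and that of INMT 1.29 (standard error 0.40). CPXM2 was at -3.96 (standard error 0.50). EC-like cells made up 21.4% to 27.5% of the stromal-like cells of control libraries and 35.5% to 68.4% of those of asthma libraries, and cell mix and level cannot be told apart in this sum. Fewer cells of a type and less RNA per cell likewise cannot be told apart in any sum over several types or states. A level within a single state still depends on which cells were put in that state.

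Alveolar Fib-like cells were too few in control for a comparison, with 7 cells in all. In the 3 asthma libraries ASIP was at 4806, 845 and 2795 CPM in this state and ADH1B at 3889, 3060 and 2712 CPM, whereas INMT was at 550.3, 322 and 542 CPM. The 6 cells of control 3 held ASIP at 2944 CPM and ADH1B at 1766 CPM, from 10191 UMIs in all. CPXM2 stood at 491 CPM there, on 5 UMIs that all lay in 1 cell. ASIP was found in 74.7% ± 18.8 and ADH1B in 85.6% ± 5.30 of thinned alveolar cells of the asthma libraries (SD, n = 3). No UMI of CPXM2, F10, HHIP or OSR2 was found in the 95 thinned cells of these libraries, from which 5, 0 and 13 shallower cells had been left out. The state had the lowest depth of the 3 matrix Fib-like states, with a median of 1591 UMIs per cell.

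Myofibroblast-like cells reached 10 cells in control 1, control 3 and asthma 11 only. CLEC3B was at 1656.5, 1306 and 1116 CPM in these libraries, ADH1B at 1383, 258 and 520.3 CPM, HHIP at 60.1, 45.6 and 108 CPM and ASIP at 46.8, 60.8 and 130.1 CPM. The 2 control libraries differed from each other by more than either did from asthma 11 for ADH1B, and in these libraries CPXM2 and OSR2 had 0 UMIs and INMT 1.

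Across all 16 cell types and states the genes followed different orders of level. CPXM2 was highest in adventitial Fib-like cells (120 ± 68.2 CPM, n = 5 libraries) and next in MC-like cells (95.2 ± 85.8 CPM, n = 6), and neighbours in its order did not differ beyond their spread. The means of adventitial and MC-like cells were 157 and 105 CPM in control, against 63.6 and 85.4 CPM in asthma. The asthma means cover different libraries, since asthma 11 had MC-like cells at 216 CPM and no adventitial cells. In asthma 8 and 10 adventitial cells were the higher, at 53.6 and 73.6 CPM against 7.53 and 32.8 CPM. In control 1 MC-like cells were the higher (165 against 138 CPM), so no turn of order between the groups is read from the means. MC-like cells held 52.8% of all CPXM2 UMIs (370 of 701). Granulocyte-like, T and NK-like, dendritic-like, monocyte-like, alveolar Fib-like, myofibroblast-like, pericyte-like and lymphatic EC-like cells held none in libraries with at least 10 such cells, which allows at most 0.787 CPM in T and NK-like cells (asthma 11, the shallowest).

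CLEC3B had a clear top, with 22948 ± 10045 CPM in adventitial Fib-like cells (n = 5), above general Fib-like (2640 ± 1973 CPM, n = 6), EC-like (1534 ± 494 CPM, n = 6) and myofibroblast-like cells (1360 ± 274 CPM, n = 3), which did not differ from one another beyond their spread. Alveolar Fib-like cells followed at 449 ± 234 CPM (n = 3). All named blood cell classes were at 14.3 CPM or less, apart from mast-like cells at 52.5 ± 91.0 CPM (n = 3).

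F10 was highest in adventitial Fib-like cells (76.7 ± 48.6 CPM, n = 5), then in pericyte-like (19.3 ± 8.65 CPM, n = 2, both asthma, from 5 UMIs in all) and myofibroblast-like cells (8.79 ± 4.10 CPM, n = 3), and at most 0.405 CPM on average in any class outside the stroma. HHIP was highest in adventitial Fib-like cells (332 ± 177 CPM, n = 5) and epithelial-like cells (282 ± 102 CPM, n = 6), which did not differ beyond their spread, followed by myofibroblast-like cells (71.4 ± 32.9 CPM, n = 3). The order of the first pair turned between the groups, with adventitial and epithelial-like means of 419 and 255 CPM in control against 202 and 309 CPM in asthma. Epithelial-like cells held 76.9% of all HHIP UMIs, and 2364 of their 2365 UMIs lay in the cluster led by SFTPC and SCGB3A2, surfactant and secretory genes.

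ASIP was highest in alveolar Fib-like cells (2816 ± 1981 CPM, n = 3, all asthma), above myofibroblast-like (79.2 ± 44.6 CPM, n = 3) and general Fib-like cells (53.4 ± 76.2 CPM, n = 6), and below 1 CPM on average in every class outside the stroma. OSR2 was highest in adventitial Fib-like cells (43.8 ± 29.9 CPM, n = 5) and then in T and NK-like cells (14.4 ± 5.94 CPM, n = 6), not apart beyond their spread. T and NK-like cells nevertheless held 69.5% of all OSR2 UMIs (593 of 853), in the cluster led by TRAC and CD3E as in that led by GNLY and GZMA.

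INMT was highest in MC-like cells (1181 ± 317 CPM, n = 6), beyond the spread to alveolar Fib-like cells (472 ± 130 CPM, n = 3), and was followed by general Fib-like (266 ± 322 CPM, n = 6), epithelial-like (137 ± 94.96 CPM, n = 6) and EC-like cells (90.2 ± 76.5 CPM, n = 6). The alveolar value came from asthma libraries alone. EC-like cells had 139 ± 84.5 CPM and general cells 66.4 ± 73.9 CPM in control, against 41.6 ± 20.8 and 465 ± 366 CPM in asthma (SD, n = 3 each). The control libraries did not all share the order of the control means. In the control library with the most INMT in general cells, general cells were above EC-like cells, as in every asthma library. No turn of order between the groups is therefore read from these means. MC-like cells held 78.4% of all INMT UMIs. Within epithelial-like cells, the cluster led by AGER and CYP4B1, genes of the flat alveolar epithelium, had INMT at between 271 and 851 CPM in the 4 libraries with at least 10 of these cells, while that led by SFTPC and SCGB3A2 had it at 157 CPM or less. Among EC-like cells, 263 of 290 INMT UMIs lay in the 132 cells of the sub-cluster led by GASK1B and F5, to which 78 of 158 EC-like cells belonged in control and 54 of 814 in asthma.

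ADH1B was highest in alveolar Fib-like cells (3220 ± 605 CPM, n = 3, all asthma), and myofibroblast-like (720 ± 588 CPM, n = 3), adventitial (639 ± 369 CPM, n = 5), general (534 ± 378 CPM, n = 6) and smooth muscle cell (SMC)-like cells (353 ± 88.9 CPM, n = 2) followed without differing beyond their spread. The means of myofibroblast-like and adventitial cells were 820.4 and 391 CPM in control, against 520.3 (1 library) and 1011 CPM in asthma. These asthma means cover different libraries, since no asthma library reached 10 cells of both states. In control 1 myofibroblast-like cells were the higher, and in control 3 adventitial cells were. No turn of order between the groups is therefore read from the means. A cluster of 172 cells that stayed unnamed, led by the basal epithelial keratins KRT15 and KRT5, had ADH1B at 2462, 1878 and 1090 CPM in control and at 1462, 1856 and 996 CPM in asthma, and the value of control 2 rests on 5 cells. It held 2238 of the 6762 ADH1B UMIs of all cells, and the groups overlapped.

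**Figure D4:**
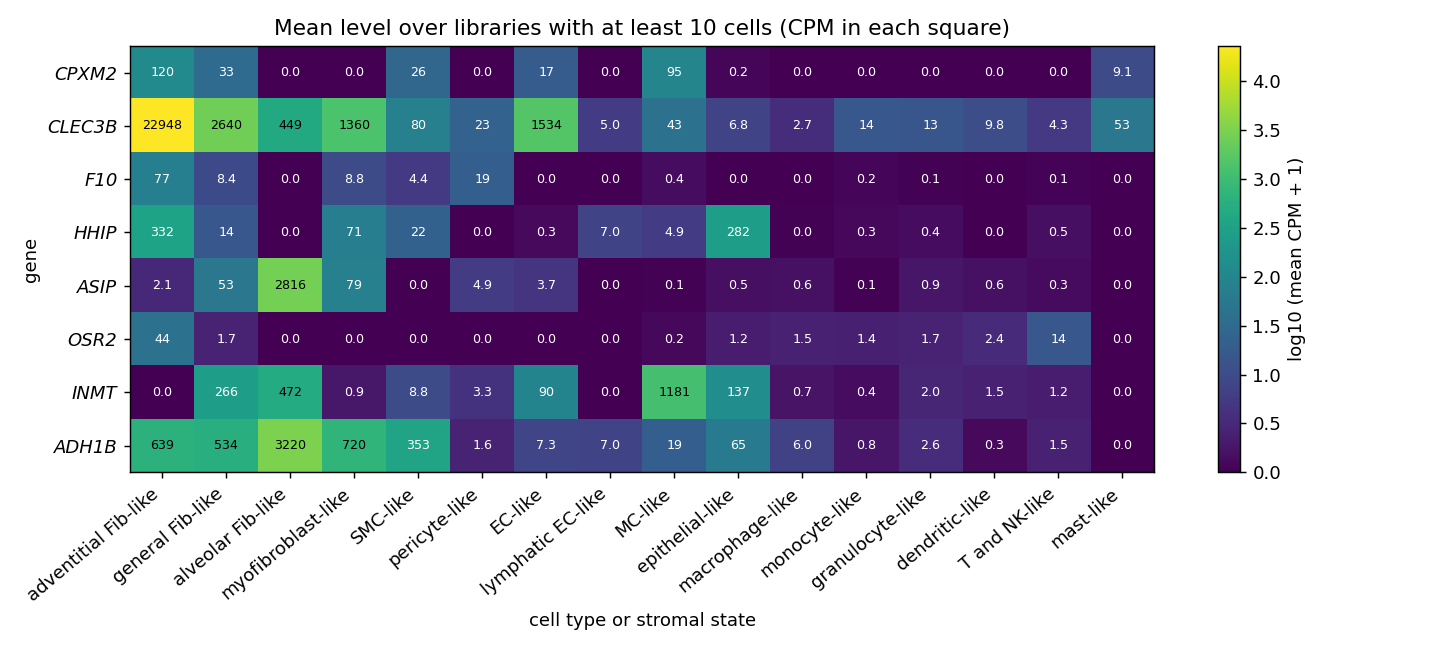
Rows are the 8 genes and columns the 16 cell types and stromal states; each square gives the mean CPM over libraries with at least 10 such cells, colored by log10 of the mean CPM plus 1. Adventitial Fib-like cells hold the highest mean over both groups of CPXM2, CLEC3B, F10, HHIP and OSR2. Alveolar Fib-like cells hold that of ASIP and ADH1B, and MC-like cells that of INMT. In asthma alone the mean of epithelial-like cells is higher for HHIP, though in asthma 8 adventitial cells are the higher. The asthma mean of MC-like cells is higher for CPXM2 only with asthma 11, which had no adventitial cells.

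Each gene's profile was set beside those of 9219 other genes over 74 sums (a cell type or state in a library, on the scale of log2 of CPM plus 10), and the 3 most alike are given with Pearson's r as a description, since sums of 1 library share depth and cells of 1 type recur. CPXM2 was most like PDLIM4 (r = 0.78), PCOLCE2 (0.77) and PTGIS (0.76). CLEC3B was most like C1QTNF2, CD34 and OMD (0.88, 0.88 and 0.87), and HHIP most like DACT2, PTPN13 and ERRFI1 (0.87, 0.82 and 0.77). F10 and OSR2 had the same 3, WNT10B, ANGPTL5 and FAM180B, at 0.86, 0.85 and 0.85 for F10 and at 0.81, 0.73 and 0.70 for OSR2.

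ASIP was most like ITGA8, ADRA1A and FGFR4 (0.90, 0.90 and 0.89), of which ITGA8 and FGFR4 are markers of the alveolar state. INMT was most like TPD52L1, PPP1R13L and ITGA3 (0.86, 0.79 and 0.79), and ADH1B most like MFAP4, FGF7 and KIAA0408 (0.92, 0.92 and 0.91). Between the 8 genes themselves, r ran from -0.29 for OSR2 with INMT to 0.69 for CLEC3B with F10.

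Outside the stroma the asthma and control levels were tested, since the genes were chosen by their levels in stromal cells. Earlier results of these data were known at that choice, so these tests may not be fully independent of it. 6 of the 8 genes had enough UMIs in 6 of 7 classes, which gave 13 tests, and none passed the edgeR quasi-likelihood test at a Benjamini-Hochberg adjusted p under 0.05. Of all genes tested in these classes, 0.00694% passed, all of them in MC-like cells (0.0578% there). None of the 13 had an unadjusted p under 0.05, none was called by DESeq2 either, and in all 13 the groups overlapped, whereas the share of all genes with groups apart was 12.2% in MC-like, 14.3% in epithelial-like, 13.6% in macrophage-like, 10.5% in T and NK-like, 10.4% in granulocyte-like and 9.70% in monocyte-like cells. This does not show that the levels were alike.

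HHIP in epithelial-like cells was at 337, 328 and 99.8 CPM in control and at 225, 331 and 371 CPM in asthma. Its log2 fold change was 0.13 (standard error 0.46, edgeR adjusted p = 0.982), against -2.87 in matrix Fib-like cells, a difference that was not tested. The SFTPC and SCGB3A2 cluster, which held nearly all of these UMIs, made up 214 of 246 epithelial-like cells in control and 342 of 611 in asthma, and within it HHIP was at 357, 415 and 102 CPM in control and at 455, 366 and 482 CPM in asthma, overlapping. INMT in MC-like cells was at 696, 1450 and 999 CPM in control and at 1122, 1239 and 1577 CPM in asthma, with a log2 fold change of 0.21 (standard error 0.30, edgeR adjusted p = 0.9502).

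CPXM2 in MC-like cells ranged widely within both groups, at 165, 124 and 25.6 CPM in control and at 7.53, 32.8 and 216 CPM in asthma, with a log2 fold change of -0.99 (standard error 1.01, edgeR adjusted p = 0.921). Of the MC-like cells, 147 of 288 in control and 535 of 547 in asthma were in the cluster led by ITLN1 and MSLN, and the rest in one led by SDC4 and VCAM1. OSR2 in T and NK-like cells was at 14.8, 24.2 and 12.5 CPM in control and at 17.1, 10.9 and 6.82 CPM in asthma (log2 fold change -0.58, standard error 0.34, edgeR adjusted p = 0.818).

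ADH1B in macrophage-like cells had 75 UMIs in control and 206 in asthma, of which 160 were in asthma 11, at a log2 fold change of 1.77 (standard error 1.17, edgeR adjusted p = 0.896). The lowest adjusted p of the 13 was 0.779, for ADH1B in epithelial-like cells (log2 fold change -1.04, standard error 0.81). CLEC3B in T and NK-like, granulocyte-like, macrophage-like and monocyte-like cells had log2 fold changes from -0.53 to -0.09. In EC-like cells, which belong to the stroma and are described only, CPXM2 had 26 UMIs in control and 2 in asthma, INMT was at 63.7, 122 and 230.2 CPM in control and at 65.0, 34.9 and 25.009 CPM in asthma, and CLEC3B overlapped at 1480, 2202 and 1512 CPM and 1580, 683 and 1749 CPM. The make-up of the class differed, since 78 of 158 EC-like cells in control and 54 of 814 in asthma were in the sub-cluster led by GASK1B and F5, which held most of the INMT UMIs, while the sub-clusters led by SEMA3G and by ACE had 9 and 27 cells in control and 343 and 325 cells in asthma. Within the GASK1B sub-cluster INMT was at 256 CPM in control 3, the only control library with at least 10 of these cells, and at 305, 481 and 312 CPM in asthma. All 28 CPXM2 UMIs lay in this sub-cluster and in that led by TAC1 and ACKR1.

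The other genes of matrix Fib-like cells give the setting of these values. Leaving the 8 aside, 22 genes were upregulated and 25 downregulated of 6744 tested, by the edgeR test (adjusted p below 0.05, with a log2 fold change beyond 0.25 either way). With the 8 included, 0.770% of 6752 genes passed in either direction, 0.355% upwards and 0.415% downwards. Calls of the 8 themselves are not read, because this contrast chose them. These counts, and with them the calls of the genes named next, depended on single libraries. In place of 24 up and 28 down, there were 0 and 0 without control 3, 8 and 7 without control 1, 13 and 31 without control 2, 80 and 58 without asthma 8, 15 and 26 without asthma 10 and 27 and 12 without asthma 11. When the adventitial state was fitted alone, 0 of 3128 genes passed, while 170 had an unadjusted p under 0.05 and DESeq2 called 3. In the general state alone, MYOC, a leading gene of the adventitial state named here after its value was seen, was the only one of 3493 genes to pass (0.0286%, lower in asthma), with 152 at an unadjusted p under 0.05 and 4 called by DESeq2.

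Of the upregulated genes with a symbol, the largest changes were those of COL27A1, a fibrillar collagen, with 2 UMIs in control and 69 in asthma (a CPM ratio of 24.6 with an exact 95% counting interval from 6.54 to 207), NKD2, an inhibitor of Wnt signaling (log2 fold change 3.81, standard error 0.56), FGFR4, a fibroblast growth factor receptor (3.77, standard error 0.58), ADRA1A, an adrenergic receptor (3.51, standard error 0.50), and SCN7A, a sodium channel gene (3.07, standard error 0.61), with edgeR adjusted p from 0.0118 to 0.0419. FGFR4 and SCN7A are on the alveolar marker list. ADRA1A is a leading gene of an alveolar Fib-like sub-cluster of 48 cells, all from asthma libraries. SCN7A is also a leading gene of the general state, and in general cells alone its log2 fold change was 1.64. FGFR4 stood at 3.87, 0 and 3.20 CPM in control and at 44.3, 25.5 and 36.1 CPM in asthma.

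The largest falls were those of DPP4, a cell surface peptidase on the adventitial marker list (log2 fold change -3.57, standard error 0.57), NPR1, a natriuretic peptide receptor (-2.59, standard error 0.47), PTHLH, parathyroid hormone-like hormone (-2.58, standard error 0.42), ANGPTL5, an angiopoietin-like protein and a leading gene of the adventitial state (-2.55, standard error 0.33), and FXYD6, a regulator of the sodium pump (-2.40, standard error 0.46), with edgeR adjusted p from 0.00806 to 0.0348. In adventitial cells alone, the log2 fold changes of NPR1, PTHLH, ANGPTL5 and FXYD6 were -0.72, -1.55, -0.82 and -1.21. ANGPTL5 stood at -1.74 in general cells, where the other 3 had too few UMIs to be fitted.

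Genes of the pathways to which the 8 belong were counted in the same fit, together with lists of extracellular matrix, immediate-early and stress, and red blood cell genes. Of the 247 genes on all these lists 119 could be tested, and 2 passed, both upwards. These were RARRES1, a retinoic acid responsive gene on the alcohol and retinoid list (1 of 15 tested, median log2 fold change of the list 0.04), and TAGLN, a gene of the contractile apparatus on the extracellular matrix list (1 of 38 tested, median -0.15). RARRES1 was at 92.8, 83.9 and 133 CPM in control and at 811, 300.7 and 399 CPM in asthma (log2 fold change 2.13, standard error 0.37, edgeR adjusted p = 0.0217). TAGLN was at 522, 255 and 427 CPM in control and at 984, 1231 and 1419 CPM in asthma (1.44, standard error 0.26, edgeR adjusted p = 0.0255). No listed gene passed without control 1 or without control 3, 1 passed without control 2 or asthma 11, and 9 passed without asthma 8.

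None of the 8 hedgehog genes tested passed (median log2 fold change 0.22), with CDON, a co-receptor of hedgehog ligands, at -0.66 and GPC3, a glypican, at 0.90. None of 13 coagulation and fibrinolysis genes passed (median -0.03), and 7 of them had an unadjusted edgeR p under 0.05, beside 740 of the 6752 genes tested in all. Within that list A2M, a protease inhibitor, was at 3360, 2927 and 2264 CPM in control and at 6045, 12048 and 13211 CPM in asthma (log2 fold change 1.69, standard error 0.35, edgeR adjusted p = 0.0507), and F2R, a thrombin receptor, had a log2 fold change of 1.78 (standard error 0.41, edgeR adjusted p = 0.0673).

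Among 7 methyltransferase and monoamine genes none passed (median 0.00), with the monoamine oxidases MAOB at 0.77 and MAOA at 0.56. Among 17 transcription factors of the lung mesenchyme none passed (median 0.30), with TBX4 at 1.24 and PRRX1 at -1.07. The 6 carboxypeptidase genes (median 0.18, CPE at -0.78 and AEBP1 at 0.54) and the 15 immediate-early and stress genes (median 0.27, EGR3 at 1.31 and HSPH1 at -0.93) held no call either. No melanocortin or red blood cell gene had enough UMIs. An unadjusted edgeR p under 0.05 was found for 2 of the hedgehog genes, 2 of the retinoid, 1 of the methyltransferase, 6 of the transcription factor, 1 of the carboxypeptidase, 8 of the extracellular matrix and 4 of the stress genes. The medians compare with 0.01 over all genes tested, and nothing is called particular to a list from them.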

How the data were processed

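The 8 genes and all gene lists were chosen with earlier results of these data known. The authors aligned reads to macFas6 with Cell Ranger and deposited raw UMI counts, with no normalization, for each gene and barcode. The submitters' processing notes name version 2.1.1, the matrix headers 4.0.0 and the methods another. Cells were retained where genes numbered over 500 and under 5000, UMIs 500 or more, and 37 mitochondrial genes took no more than 25% of UMIs. After scaling to 10000 and a log transform, 2000 variable genes without the 8 were reduced to 10 principal components, and Leiden clusters were drawn from a 20-neighbour graph (resolution 0.8, scanpy 1.11.5, leidenalg 0.10.2, Python 3.11.15). Clusters, and then sub-clusters of the stromal-like class, were named from marker lists (at least 3 markers with a log2 fold of at least 1). The authors' annotation was not used here. 3 stromal sub-clusters with markers of T and NK, macrophage or granulocyte cells (249 cells) were left out as mixed, and doublets were otherwise kept, because the Scrublet method's own threshold marked only 10 cells (0.0413%).

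Counts were summed per library and class or state (at least 10 cells) and given as CPM of the sum. The edgeR 4.0.16 quasi-likelihood test (R 4.3.3) was run with TMM and filterByExpr over all genes, checked on simulated data, with differentially expressed genes called where the Benjamini-Hochberg adjusted p was below 0.05 and the log2 fold change beyond 0.25 either way. The replicate is the monkey, with 3 per group. SMC-like, pericyte-like, myofibroblast-like and mast-like cells had too few libraries for a fit. Alternatives were DESeq2 1.42.0, no filter on low counts, a mitochondrial maximum of 10%, a resolution of 1.6, clustering with the 8 genes, removal of the 1141 cells with the highest doublet scores, single states, all stromal-like cells, thinning to 2000 UMIs, and each library left out. Genes named beside the 8 follow a rule: the 3 most alike profiles per gene among genes with at least 50 stromal UMIs, the 5 largest rises and falls with a symbol and groups apart, and each list's calls or else its 2 lowest p. Of the marker and list genes, 34 symbols were not among the symbols of the files. Intervals and floors (3 UMIs) cover counting error only.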

Additional observations from a re-analysis of the deposited data

How the results depend on the processing

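No paired analysis was possible because the control and asthma monkeys share no replicate number. The 8 genes kept their direction in matrix Fib-like cells under every alternative that gave a value, the states alone and all stromal-like cells included, though the choice of the genes fixes this direction, with log2 fold changes that ran, leaving out 1 library at a time, from -3.66 to -2.69 for CPXM2, -2.95 to -1.74 for CLEC3B, -4.35 to -2.21 for F10, -3.94 to -2.23 for HHIP, -4.08 to -2.60 for OSR2, 2.95 to 4.43 for ASIP, 3.42 to 5.17 for INMT and 0.74 to 1.35 for ADH1B. OSR2 had too few UMIs for the fit once the highest doublet scores were removed.

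Counts of differentially expressed genes were far less stable. In place of 24 up and 28 down in matrix Fib-like cells, there were 48 and 52 with DESeq2, 247 and 177 with no filter on low counts (which moved the median of all genes to 0.13 on the log2 scale), 68 and 62 at a mitochondrial maximum of 10%, 0 and 0 in adventitial and 0 and 1 in general Fib-like cells alone, and, leaving out 1 library at a time, 0 (without control 3) to 80 up and 0 to 58 down (without asthma 8). The 2 listed genes called became 7, 22 and 10 under the first 3 settings, 4 at a resolution of 1.6, 0 in either state alone, and 0 to 9 with a library left out. Outside the stroma, 0 calls of the 8 genes stayed at 0 to 0 with a library left out and became 1 with no filter, CLEC3B in MC-like cells (log2 fold change -2.89, edgeR adjusted p = 2.35e-15), where 177 of 183 control UMIs lay in control 1. The cause of these moves was not tested.

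As differences in share of stromal-like cells between asthma and control, with a library left out, the adventitial state ran from -32.6 to -21.1 points, the alveolar from 3.11 to 6.003, the myofibroblast-like from -20.3 to -4.59 and the general from -1.95 (without asthma 11) to 5.75 points, being -0.728 without control 3. Over all cells the myofibroblast-like difference turned to 0.247 points from -13.0. Thinned to 2000 UMIs, the difference in share of matrix Fib-like cells was -17.9 points for CLEC3B, -10.1 for F10, -28.1 for HHIP, 13.3 for ASIP and -7.60 for OSR2. The fits of states alone were added after seeing the data. At a mitochondrial maximum of 10%, adventitial and monocyte-like cells could not be fitted. Few cells (18 to 124 adventitial cells in 5 libraries, 0 in asthma 11) limit the precision of values in that state, and the cells put there in asthma 11 were 4 at a mitochondrial maximum of 10% and 1 with the 8 genes in the clustering.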
